A study of Mus musculus with 9 samples.

Results

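Nuclear pore and nuclear transport genes were read in RNA from the inner lining of mouse thoracic aortas. The genes were chosen by name, as symbols in the array annotation that start with Nup, Kpna, Kpnb, Ipo or Tnpo and a digit, or with Xpo and a digit or t. This pattern matched 44 symbols. Of these, 39 had a transcript cluster (an array feature that summarises the probes of 1 transcript unit) that names them alone, and these 39 are the members described here, out of 30142 genes on the array. The other 5 (Ipo7, Ipo11, Nup62, Nup62-il4i1 and Nup214) lie only on clusters that name several genes and have no value here. Where a symbol had several clusters, the brightest over all arrays stood for it. That mean brightness is the one measured value in this rule, so the levels below are a description. Earlier results of these data were known when the genes were chosen.

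Control mice were Cdh5-CreERT2(-) littermates and ACDiEKO mice were Cdh5-CreERT2(+), and both groups carried floxed Mef2a, Mef2c and Mef2d alleles (f/f) and received tamoxifen. Cdh5-CreERT2 is a tamoxifen-activated recombinase driven by the promoter of the endothelial cadherin gene, so deletion was aimed at endothelial cells. All animals were female and 10 weeks old at the first of 5 daily injections. Harvest is given as 7 days from the start of injections in the text of the series but as 14 days in the protocols of its samples. RNA was flushed with TRIzol from the lumen of single aortas, and 5 ng was used for each of 9 arrays, 4 control and 5 ACDiEKO. As no control carried the recombinase, an effect of the enzyme and an effect of the lost MEF2 genes cannot be told apart.

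The nuclear pore is the channel through which all traffic between nucleus and cytoplasm passes. Its scaffold is built from outer rings (the Y complex) and an inner ring, its channel is lined by FG proteins that bind transport receptors, and a basket extends into the nucleus. Importins and exportins are receptors that carry cargo through this channel. The small GTPase Ran sets their direction, because Ran bound to GTP is kept high in the nucleus, where it releases import cargo and loads export cargo. In the classical route, an importin alpha binds the nuclear localisation signal of a cargo and is itself carried by importin beta.

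The values are log2 values as deposited, and differences are given in log2 units, ACDiEKO minus control, never as folds. ACDiEKO replicates 1 and 2 were nearly identical: over bright clusters their values differed with a robust SD of 0.0707, against 0.268 to 0.401 for the other 15 pairs within a group. Both were averaged, which left 4 samples in each group. Endothelial markers averaged 12.78 to 13.17 in control samples and 12.53 to 13.09 in ACDiEKO samples. Single markers moved both ways: of 11 tested, Emcn (3.72) and Kdr (0.96) rose and Cldn5 (-3.59), Tek (-1.92) and Pecam1 (-0.37) fell. The floxed genes were not lower in ACDiEKO: Mef2a differed by 0.12, Mef2c by 0.06 and Mef2d by 0.23 (limma, adjusted p = 0.441, 0.66 and 0.111). A whole-transcript cluster can hold probes outside the deleted exons, so the genotype is left unchecked by these values. In this bulk RNA, a change in the number of cells of a type and a change of RNA per cell cannot be told apart.

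Promoter stretches are shown for the members that the results turn on: Kpna2 and Ipo5, which had the largest rises, Nup93, the inner ring linker, and Nup160, the member that fell. They come from RefSeq promoter windows of GRCm38.p6, which run from 250 bases before to 50 after the start of a gene. Windows were listed for 31 of the 39 members. Sequences are written 5′ to 3′ on the strand of the gene. Capitals mark a CHR element (TTTGAA), a promoter element of cell cycle genes, a CCAAT box (CCAAT), an E2F core (GGCGGGA) or a MEF2 consensus, searched on both strands.
Kpna2 (chr11:106999526-106999645, minus strand): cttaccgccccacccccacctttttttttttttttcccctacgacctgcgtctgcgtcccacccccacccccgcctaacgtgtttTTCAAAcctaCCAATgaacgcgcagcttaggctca
Ipo5 (chr14:120910954-120911073, plus strand): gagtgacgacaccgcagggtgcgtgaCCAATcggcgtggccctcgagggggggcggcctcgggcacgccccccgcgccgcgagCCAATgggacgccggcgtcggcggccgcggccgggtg
Nup93 (chr8:94214444-94214563, plus strand): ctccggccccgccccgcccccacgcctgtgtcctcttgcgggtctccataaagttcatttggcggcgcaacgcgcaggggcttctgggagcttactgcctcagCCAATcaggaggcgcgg
Nup160 (chr2:90676995-90677114, plus strand): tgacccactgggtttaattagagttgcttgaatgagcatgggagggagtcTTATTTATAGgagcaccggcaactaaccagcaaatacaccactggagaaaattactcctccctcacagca

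In the Kpna2 stretch, a CHR match on the opposite strand (positions -35 to -30, with 0 the first transcribed base) lies 4 bases before a CCAAT box (-25 to -21). The stretches are parts of their windows, which held further matches outside them. These were a CCAAT box in Kpna2 (6 to 10) and Nup93 (-220 to -216), and an E2F core in Ipo5 (0 to 6) and Nup93 (-169 to -163). Further windows of Ipo5 and Nup93 are not shown. Of the 31 members with a window, 6 held a CHR match, 17 a CCAAT box and 5 an E2F core. Over promoter windows, 7 of the 38 of these members held a CHR match, against 17.9% of all 32851 windows. A CCAAT box was in 20 of 38, against 37.4% of all, and an E2F core in 5 of 38, against 11.3%. A MEF2 consensus stood in 1 of the 38, that of Nup160 (-170 to -161), against 3.19% of all. A match of letters is a description and shows no binding.

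ACDiEKO and control samples were compared to find which of these genes differ where deletion of Mef2a, Mef2c and Mef2d was aimed at endothelial cells. Of the 39 members, 35 passed the filter on dim genes, and each of these lay above the filter value of 6.165 in all 8 samples. The 4 below it were Kpna7, Nup210, Nup210l and Nup62cl. Of the 35, 15 rose in ACDiEKO, 1 fell and 19 did not pass limma with Benjamini-Hochberg adjustment over all 16361 genes tested. The risers made up 42.9% of the members tested, where 8.91% of all tested genes rose and 7.37% fell. Kpna2, Ipo5 and Nup43 rose by at least 1, as did 3.07% of all tested genes. Differences were above 0 in 29 members and below it in 6, with a median of 0.42, against -0.03 over all tested genes. Of all calls, 54.7% were rises, and this share was 65.7% after centring arrays on their medians and 65.4% after quantile normalization, so the balance of calls depends on the scaling.

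Groups did not overlap in 14 of the 15 risers, and in 4 members that did not pass (Kpna1, Tnpo2, Nup85 and Nup98). Every ACDiEKO sample lay above every control sample in 18 of 35 members, and in 12.0% of all genes tested. Every ACDiEKO sample lay below every control sample in none of the members and in 11.0% of all genes. Replicate SDs of the 35 members ran from 0.035 to 0.416 in control (median 0.185) and from 0.042 to 0.424 in ACDiEKO (median 0.171).

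**Figure D1:**
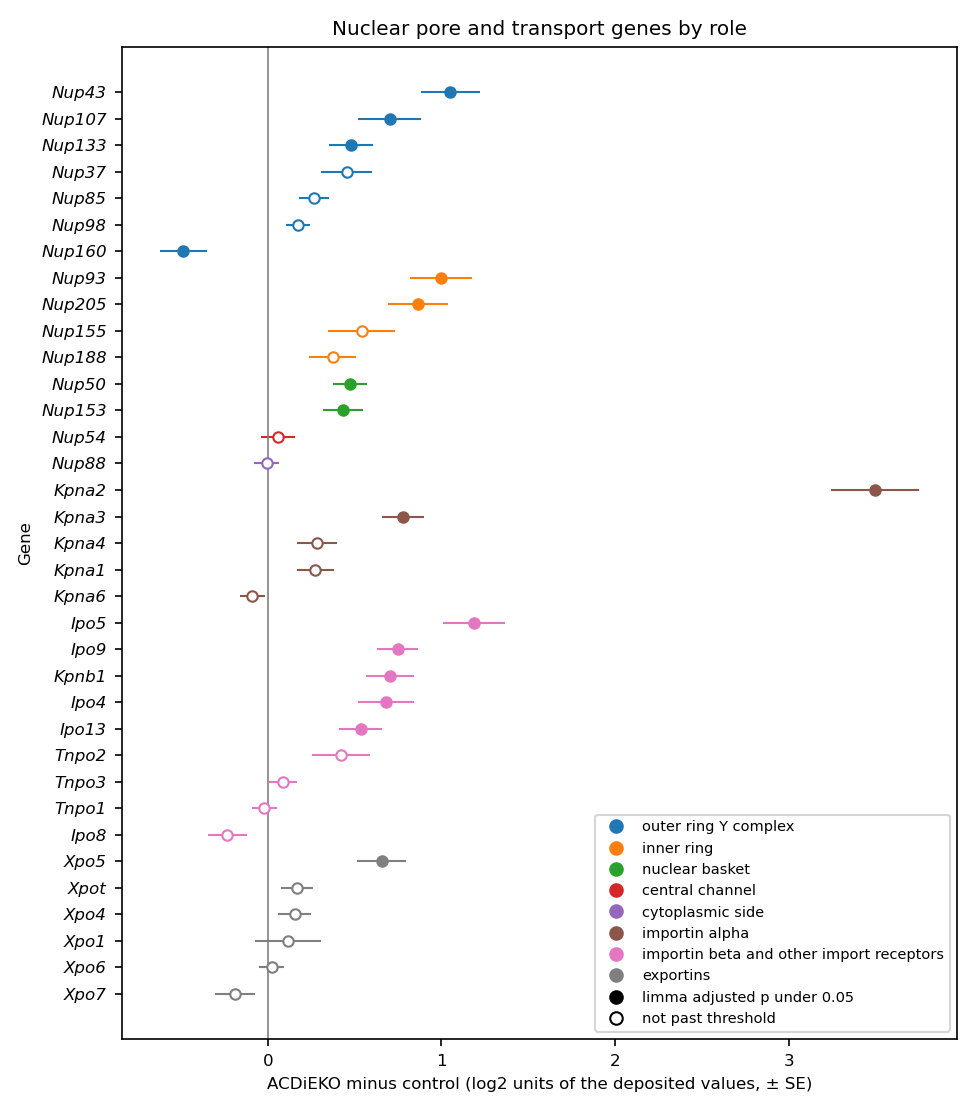
Differences between ACDiEKO and control for the 35 tested members, in log2 units of the deposited values with the standard error of the limma fit, grouped by role. Filled points passed an adjusted p of 0.05; Kpna2 stands at 3.50, the other risers lie between 0.43 and 1.19, and Nup160 lies at -0.49.

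Importin alphas, the adaptors of classical import, held the largest difference. Kpna2, importin alpha 1, which is abundant in dividing cells, read 10.30, 9.34, 9.74 and 9.52 in control replicates 1 to 4. In ACDiEKO it read 13.28 in the mean of replicates 1 and 2 and 13.71, 13.18 and 12.72 in replicates 3, 4 and 5. The lowest ACDiEKO sample lay 2.42 above the highest control sample. Kpna2 rose by 3.50 (SE 0.25; limma adjusted p = 0.000392).

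Kpna2 is named by 3 transcript clusters, and the brightest is not the one on the chromosome of the gene. The number in a cluster's identifier matches the RefSeq chromosome in all but 67 of the 29722 genes where both were known. It gave chromosome 3 for the brightest Kpna2 cluster, 17 for the second and 11 for the third, whereas the gene lies on chromosome 11. RefSeq lists a pseudogene, Kpna2-ps, on chromosome 17. The chromosome 11 cluster read 8.64, 8.01, 8.29 and 8.13 in control and 11.00, 11.51, 11.04 and 10.66 in ACDiEKO, again without overlap. Its difference was 2.79 (SE 0.20; limma adjusted p = 0.000353 when each gene was read from a cluster on its own chromosome). The chromosome 17 cluster differed by 3.52 (SE 0.25). All 3 clusters thus had the samples in 2 separate groups, and which copy of the sequence each one reports cannot be told apart.

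The other importin alphas differed less. Kpna3, a member of another importin alpha subfamily, read 10.73, 10.25, 10.34 and 10.47 in control and 11.32, 11.23, 11.33 and 11.01 in ACDiEKO. It rose by 0.78 (SE 0.12; limma adjusted p = 0.00535), with no overlap. Kpna4, its close relative, read 11.50, 11.10, 11.34 and 11.07 against 11.44, 11.69, 11.57 and 11.45. Control replicate 1 lay inside the ACDiEKO range there, and the difference of 0.28 did not pass (limma adjusted p = 0.13). Kpna1 (0.27) and Kpna6 (-0.09), of a further subfamily, did not pass. Kpna7, known from the egg and early embryo, lay between 4.82 and 4.91 in all samples, below the filter.

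**Figure D2:**
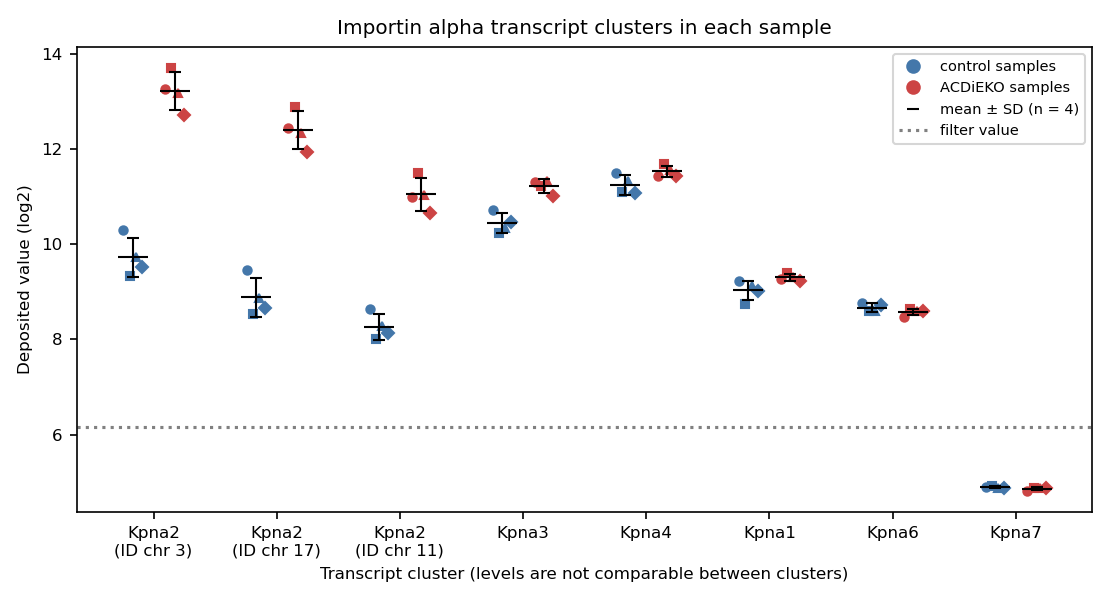
Deposited log2 values of the importin alpha clusters in each sample, with mean and SD (n = 4 per group, ACDiEKO replicates 1 and 2 averaged); Kpna2 is shown by all 3 clusters with the chromosome in the identifier. The groups are apart in each Kpna2 cluster, in Kpna3 and in Kpna1 (a difference of 0.27 that did not pass), overlap in Kpna4 and Kpna6, and lie below the dotted filter value in Kpna7.

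Import receptors of the importin beta family rose in 5 of 9 members and none fell. Limma gave none of the 20 tested transport receptors an unadjusted p under 0.05 for a lower level, as it did for 17.1% of all tested genes. Ipo5, which imports ribosomal proteins and histones, read 8.33, 8.07, 8.64 and 8.51 in control. In ACDiEKO it read 9.73, 9.49, 9.90 and 9.17, so each of these samples was above each control. It rose by 1.19 (SE 0.18; limma adjusted p = 0.00463).

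Ipo9, a histone importer, read 9.05, 9.07, 9.30 and 8.85 in control and 9.98, 9.87, 9.82 and 9.60 in ACDiEKO, and rose by 0.75 (SE 0.12; limma adjusted p = 0.0053). Kpnb1, importin beta itself, read 10.97, 10.85, 10.91 and 10.61 in control and 11.74, 11.39, 11.77 and 11.26 in ACDiEKO. It rose by 0.71 (SE 0.14; limma adjusted p = 0.0122), again without overlap. Ipo4, another importer of histones, rose by 0.68 (limma adjusted p = 0.026), and Ipo13, which carries cargo in both directions, by 0.53 (limma adjusted p = 0.0235).

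The transportins and Ipo8 did not pass. Tnpo2 read 9.61, 9.48, 9.66 and 8.99 in control and 10.13, 9.87, 9.71 and 9.71 in ACDiEKO. Its groups did not overlap, but control replicate 4 lay well below the other controls, and the difference of 0.42 (SE 0.17) did not pass (limma adjusted p = 0.119). Tnpo1, the close paralog of Tnpo2 and an importer of RNA-binding proteins, differed by -0.02 (SE 0.07). Tnpo3, which imports splicing factors, differed by 0.09 and Ipo8 by -0.23.

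Of 6 exportins, 1 rose. Xpo5, which exports microRNA precursors, stood at 9.52 ± 0.23 in the 4 control samples and at 10.17 ± 0.20 (SD) in the 4 ACDiEKO samples, a rise of 0.66 (SE 0.14; limma adjusted p = 0.0176). Its groups did not overlap. Xpo1, the receptor of leucine-rich export signals, differed by 0.12 (SE 0.19), with ACDiEKO samples at 10.10, 10.41, 9.92 and 9.39 on both sides of the controls (9.76 to 9.92). Xpot, the tRNA exporter, differed by 0.17, Xpo4 by 0.15, Xpo6, which exports actin, by 0.02 and Xpo7 by -0.19, and none of these passed.

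Among the 15 tested pore proteins, 7 rose, 1 fell and 7 did not pass, with a median difference of 0.45. All 4 inner ring members had differences above 0. Nup93, the linker that ties the inner ring together, read 8.61, 8.47, 9.02 and 8.56 in control and 9.63, 9.62, 10.08 and 9.32 in ACDiEKO. It rose by 1.00 (SE 0.18; limma adjusted p = 0.00854). Nup205, a large scaffold protein, read 7.81, 7.69, 8.31 and 7.86 in control and 9.03, 8.84, 8.87 and 8.40 in ACDiEKO.

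The Nup205 rise was 0.87 (SE 0.17; limma adjusted p = 0.0132), with 0.08 between the highest control and the lowest ACDiEKO sample. Nup188, the paralog of Nup205, differed by 0.37 and Nup155, which touches the membrane, by 0.54 (SE 0.19), and neither passed (limma adjusted p = 0.1 and 0.093). Both basket members rose. Nup50, which helps release cargo from importin alpha, read 9.33, 9.29, 9.27 and 9.24 in control and 9.93, 9.92, 9.61 and 9.57 in ACDiEKO, a rise of 0.47 (SE 0.10; limma adjusted p = 0.0155). Nup153, an FG protein that anchors the basket, rose by 0.43 (SE 0.12; limma adjusted p = 0.0394).

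Y complex subunits moved in both directions. Nup43, a propeller-shaped subunit, read 7.00, 7.10, 7.50 and 7.20 in control and 8.56, 8.07, 8.46 and 7.92 in ACDiEKO. It rose by 1.05 (SE 0.17; limma adjusted p = 0.00599), with no overlap. Nup37, another propeller subunit, read 8.93, 8.86, 9.45 and 9.32 against 9.58, 9.57, 9.78 and 9.45. Its lowest ACDiEKO sample equalled control replicate 3, and the difference of 0.45 did not pass (limma adjusted p = 0.0714).

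The scaffold subunits Nup107 (0.70) and Nup133 (0.48) rose (limma adjusted p = 0.0354 and 0.0355), and in Nup107 control replicate 3 and ACDiEKO replicate 5 had the same value. Nup160, a subunit of the same complex, read 11.50, 11.04, 11.54 and 11.47 in control and 10.65, 11.04, 11.00 and 10.90 in ACDiEKO. It fell by 0.49 (SE 0.14; limma adjusted p = 0.0444), and control replicate 2 had the value of the highest ACDiEKO sample. The call ended after centring arrays on their medians (difference -0.43, adjusted p = 0.0738) and over all alternatives its adjusted p ranged from 0.0144 to 0.878. Nup85 (0.27) and Nup98 (0.17) did not pass, and neither did Nup54 of the central channel (0.06) or Nup88 of the cytoplasmic side (-0.01).

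**Figure D3:**
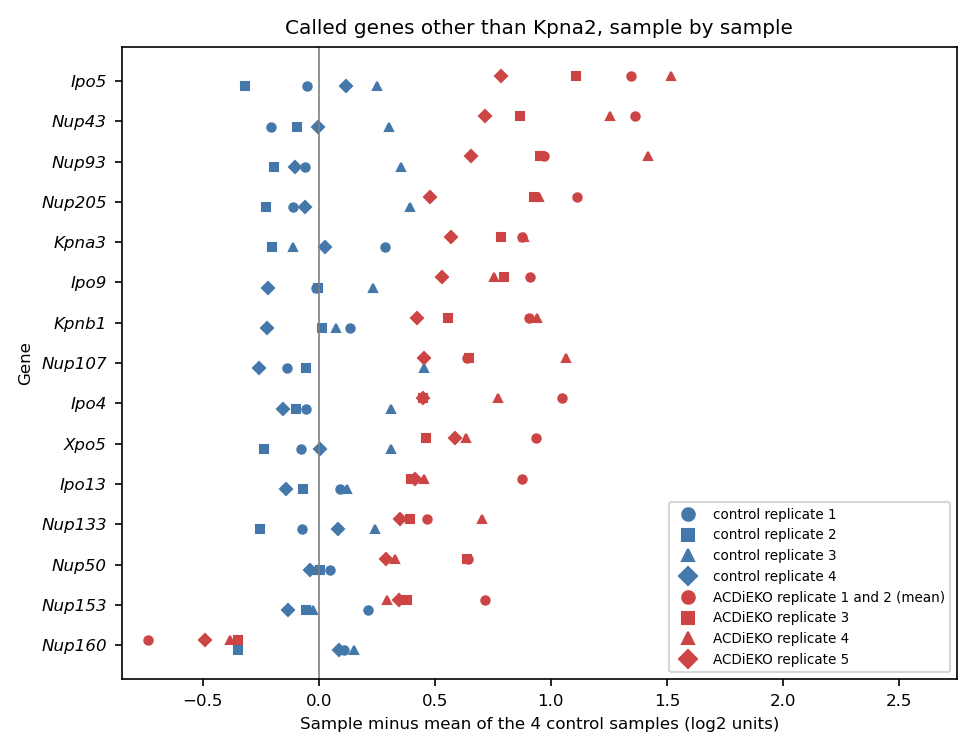
Values of the 15 called members other than Kpna2 in each sample, as the difference from the mean of the 4 control samples (log2 units). In 14 of them the ACDiEKO samples lie to the right, and ACDiEKO replicate 5 is often the lowest of its group. In Nup107, 1 of these 14, ACDiEKO replicate 5 meets control replicate 3. In Nup160 the ACDiEKO samples lie to the left and meet control replicate 2.

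Within each group, certain samples often stood highest or lowest among the 15 risers. These places were not counted over the other members or over all tested genes. ACDiEKO replicate 5 was the lowest of its group in 11 of the 15 risers, and the mean of replicates 1 and 2 was the highest in 8. Control replicate 3 was the highest control in 10 of the 15, and control replicates 2 and 4 were the lowest in 7 each. A list of dividing cell markers moved with the groups. All 15 of its measured genes rose, where 8.91% of all tested genes rose. Among them, Bub1b lay below the filter value in every control sample (5.75 to 5.95), so it was tested only through its ACDiEKO values. The mean of the list was 6.64 to 7.03 in control samples and 9.93, 10.08, 10.01 and 9.11 in ACDiEKO, with the last value in replicate 5. The part of these markers in the members' differences was not tested.

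Markers of other cell types also differed between samples. Smooth muscle markers averaged 8.08 to 9.01 in control and 9.33 to 10.20 in ACDiEKO, and 8 of the 12 tested rose. Acta2, smooth muscle actin, rose by 3.19, while Myh11, the smooth muscle myosin, differed by -0.04 (limma adjusted p = 0.894). The mean of the smooth muscle markers did not overlap between the groups. A fit with this mean as a covariate therefore has little information to tell group and covariate apart. The SE of Kpna2 was 0.55 there, against 0.25 without it. With the covariate in limma, none of the 35 members and none of the 16361 genes passed. In that fit, 5 members and 1381 genes had an unadjusted p under 0.05. Kpna2 then differed by 3.23 (SE 0.55; adjusted p = 0.174, against 5.13e-05 to 0.015 in the other alternatives). Of the 16 called members, 10 kept a difference within 1.5 times of that without the covariate, among them Nup205 (0.91) and Ipo9 (0.69). In the other 6 it was smaller by more than that: Kpnb1 stood at 0.20, Nup153 at 0.14, Ipo13 at 0.28, Kpna3 at 0.41, Ipo4 at 0.42 and Nup160 at -0.29. Because the covariate moved with the group, this sorting of members is a description. Leukocyte markers averaged 6.56 to 7.22 in control, 6.91, 7.28 and 6.93 in the first 3 ACDiEKO samples and 9.03 in replicate 5, and 0 of 9 tested passed.

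Leaving out single samples ended some calls. With any 1 of the 8 samples left out, 10 of the 16 calls held: Kpna2, Kpna3, Kpnb1, Ipo5, Ipo9, Xpo5, Nup43, Nup50, Nup93 and Nup205. Ipo13 was lost without ACDiEKO replicate 4 or control replicate 2 or 4 (adjusted p up to 0.0652). Ipo4 was lost without ACDiEKO replicate 4, the averaged replicates 1 and 2, or control replicate 1, 2 or 4 (up to 0.075).

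The calls of Nup107 and Nup133 ended without any 1 sample other than ACDiEKO replicate 5 or control replicate 3 (adjusted p up to 0.089 and 0.0888). Nup153 kept its call without control replicate 1 alone and Nup160 without control replicate 2 alone (up to 0.0981 and 0.106). With the replicate number of the titles as a block over all 9 arrays, 12 of the 16 calls held and Ipo4, Nup107, Nup133 and Xpo5 were lost. Numbers 4 and 5 occur only in ACDiEKO titles, so the group difference in that fit rests on ACDiEKO replicates 1, 2 and 3. The nearly identical replicates 1 and 2 entered it as separate samples, and both control replicates 3 and 4 carried the number 3. The 2 controls with animal numbers apart from all other animals are control replicates 3 and 4. Without both, 9 members rose, 8 of them among the 15, and Kpna3, Kpnb1, Nup50, Ipo4, Ipo13, Nup107, Nup153 and Nup160 lost their calls. With both kept and this split of the animal numbers as a term, 11 members passed: Kpnb1, Nup50, Ipo4, Ipo13, Nup107, Nup153 and Nup160 lost their calls, and Nup37 and Nup155 gained one.

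Partner genes outside the name pattern were read from 5 lists. Of 54 genes listed, 45 had a cluster of their own and 44 were tested. Of these 44, 16 rose and none fell in limma, where 8.91% of all tested genes rose and 7.37% fell. At an unadjusted p under 0.05, 24 were higher and 2 lower, as were 15.6% and 17.1% of all tested genes. In the Ran cycle, 5 of 6 tested genes rose. Ran itself, the GTPase, stood at 9.09 ± 0.11 in control and at 9.91 ± 0.09 in ACDiEKO (SD over 4 samples each). It rose by 0.81 (SE 0.08; limma adjusted p = 0.00083), and its groups did not overlap.

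Ranbp1, a cofactor of GTP hydrolysis by Ran, rose by 0.96 (limma adjusted p = 0.00161), and Rangap1, the activating protein of that step, by 0.80 (0.00606). Cse1l, the exportin that returns importin alpha to the cytoplasm, rose by 0.96 (limma adjusted p = 0.0062). It read 10.83, 10.26, 10.70 and 10.74 in control and 11.80, 11.72, 11.59 and 11.27 in ACDiEKO, without overlap. Rcc1, the exchange factor that loads Ran with GTP on chromatin, rose by 0.37 (limma adjusted p = 0.0305), from values close to the filter (6.12 to 6.30 in control). Ranbp3 (0.08) did not pass.

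Of 7 other pore proteins tested, 3 rose: Ndc1, a membrane anchor of the pore, by 1.43 (SE 0.20; limma adjusted p = 0.00334), Aaas by 0.77 and Nupl2 by 0.33. Of 3 further Y complex partners, Sec13 rose by 0.65, while Seh1l (0.50; limma adjusted p = 0.058) and Ahctf1, which recruits the complex to chromatin (0.02), did not pass. In the mRNA export list, 4 of 13 rose, namely the adaptor Alyref (0.53), the export cofactor Nxt1 (0.50), the helicase Ddx39a (0.41) and Thoc1 (0.37). Nxt1 rose from values close to the filter (6.10 to 6.46 in control). In the lamina and envelope list, 3 of 15 rose. Lmnb1, a B-type lamin, rose by 1.33 (SE 0.21, limma adjusted p = 0.005), Vrk1 by 0.53 and Banf1, which bridges chromatin and envelope, by 0.29. Lmnb2, the other B-type lamin, differed by 0.28 and did not pass (limma adjusted p = 0.0521). Median differences were 0.81 in the Ran cycle, 0.22 in mRNA export and 0.12 in the envelope list, against -0.03 over all genes tested.

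**Figure D4:**
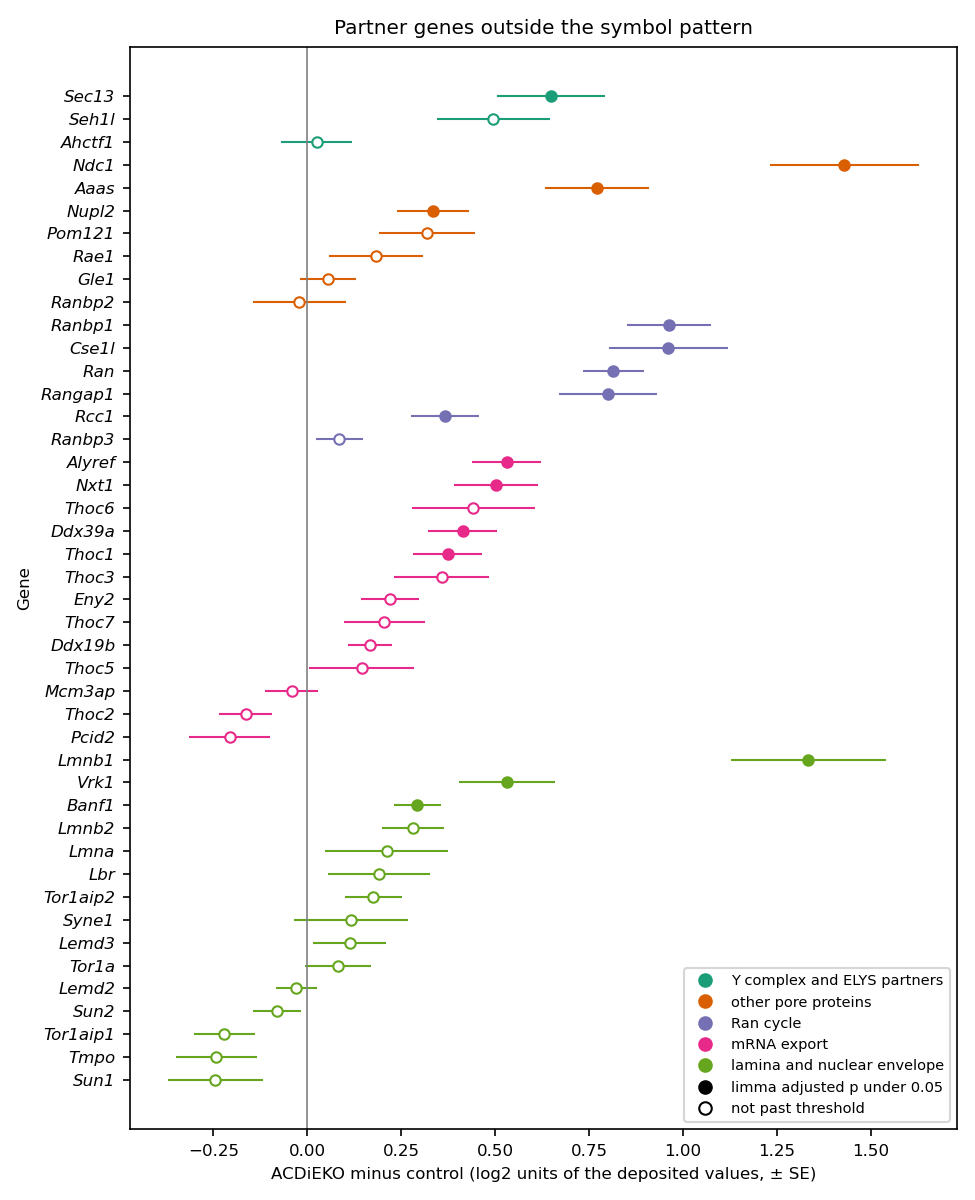
Differences between ACDiEKO and control for the 44 tested partner genes, in log2 units with the standard error of the limma fit, by list. Filled points passed an adjusted p of 0.05; these 16 lie between 0.29 and 1.43, and 5 of the 6 Ran cycle genes are among them.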

How the data were processed

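Gene expression was measured on mouse Clariom D arrays, 1 aorta per array. Values were deposited on a log2 scale and had been produced by the authors with RMA, which corrects background, normalizes arrays and summarises probes, per the submitters' processing notes, with no version given. They ran from 2.58 to 19.34, and since any further scaling is not given in the sources used here, differences are not turned into folds. The genome build and annotation of the array are not given in the sources used here. For arrays, their number limits the precision, and p-values measure the spread between these aortas.

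Of 72688 features, 65956 were transcript clusters. Clusters with 1 symbol (updated through gene IDs to RefSeq GRCm38.p6) were collapsed to the brightest per symbol. A gene was tested where at least 4 of 8 samples lay above the table's median (6.165). The test was limma (version 3.58.1, under R 4.3.3), two-sided, with Benjamini-Hochberg adjustment at 0.05. The members and lists were chosen with earlier results of these data known. The rule for named genes lets every member be named, gives all samples for called members with a difference of at least 1 and a close relative that did not pass, and names 3 to 5 genes of each partner list. Sample values of other members were chosen after their values were seen. The fit was first tested on simulated data. The numbers in the titles did not pair the arrays: correlations of deviations between same-numbered arrays were -0.14 to 0.041. The titles give 2 controls the number 3, and the second is called replicate 4. Alternatives covered the filter, scaling, cluster choice, variance model, array weights, covariates, the replicate number as a block, threshold and left-out samples. Schwann, adipocyte, erythrocyte and fibroblast markers were read too: none of their 13 tested genes rose and 2 fell. Adipocyte markers still differed widely between samples of a group. They averaged 8.71, 11.22, 9.10 and 10.72 in control replicates 1 to 4. In ACDiEKO they averaged 9.36 in the mean of replicates 1 and 2 and 9.87, 7.38 and 10.32 in replicates 3, 4 and 5. The part of this spread in the members' values was not tested. Protein sequences were not used here.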

Additional observations from a re-analysis of the deposited data

Results flagged for a closer look

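Of the 70 groups of 4 samples examined (35 members in both groups), 4 held a sample far from the others by Dixon's criterion, and chance flags about 1 group in 20. Ipo13 was 9.62 in the mean of ACDiEKO replicates 1 and 2, against 9.14 to 9.20 in the other ACDiEKO samples. Nup188 was 10.12 in the same mean, against 9.67 to 9.70. Tnpo3 was 11.93 in ACDiEKO replicate 3, against 11.73 in the other 3 samples. Those 3 read the same value (11.7292), and control replicate 3 read 11.729. With such a tie, any other value in the remaining sample would be flagged. Ties between samples also occurred in other members, among them Kpna6 (8.591) and Xpo6 (10.684). The cause of these ties was not tested. Nup160 was 11.04 in control replicate 2, against 11.47 to 11.54 in the other controls.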

How the results depend on the processing

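The count of members that rose (15) was 9 when control replicates 3 and 4 were both left out, 6 at a threshold of 0.01 and 0 with the smooth muscle covariate. It was 21 after quantile normalization, 19 with all 9 arrays as separate samples and 10 to 15 with 1 sample left out. The count that fell (1) was 0 after median centring, after quantile normalization, with no filter on dim genes, with animal numbers entered as 2 runs, with that covariate, when control replicates 3 and 4 were both left out, at a threshold of 0.01 and with each cluster tested on its own; leaving out samples gave 0 to 1. Partner genes that rose (16) numbered 5 without those 2 controls, 10 under the stricter filter, 8 at a threshold of 0.01, 0 with the covariate and 10 to 17 with samples left out. Partner genes that fell (0) numbered 1 with all 9 arrays as samples and 0 to 1 with samples left out. With the replicate block the count of members that rose was 11. No called member changed direction in any of the 21 refits. The cause of these changes was not tested. In every refit that tested them, apart from the covariate, 6 calls held: Kpna2, Ipo5, Ipo9, Nup43, Nup93 and Nup205. The chromosome rule for clusters was added after seeing the data.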
